A study of Mus musculus with 18 samples.

Results

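Fatty acid oxidation was followed in mouse bone marrow-derived macrophages through 34 genes whose products activate fatty acids, carry them into mitochondria or peroxisomes, break them down there or control that breakdown. The genes were taken by symbol from a table of 21380 gene identifiers. All 34 occurred once in the table and all 34 passed the filter on low values. By role they comprise 4 acyl-CoA synthetases, 5 genes of the carnitine shuttle, 6 mitochondrial acyl-CoA dehydrogenases, 6 genes of hydration, hydroxyacyl dehydrogenation and thiolysis, 4 auxiliary enzymes of unsaturated fatty acids, 2 genes of electron transfer, 6 peroxisomal genes and 1 transcriptional coactivator.

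Marrow from the femurs of Ldha knockout (KO) and wild-type (WT) mice was cultured for 7 days in 15% serum with macrophage colony-stimulating factor at 30 ng/mL, and poly(A) RNA was sequenced. The 6 groups were KO and WT macrophages with interferon gamma (IFN-gamma) for 24 h, KO and WT macrophages with interleukin 4 (IL-4) for 24 h, and untreated KO and WT macrophages, with 3 libraries in each. Each of 3 KO and 3 WT animals gave 1 library to each treatment, so that each group holds 3 animals and the treatments of a genotype share their animals. Neither the age, sex and strain of the mice nor the means of deleting Ldha are stated by the labels. The title of the series calls the Ldha expression under study macrophage-specific.

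Long-chain fatty acids are first joined to coenzyme A and then cross the mitochondrial membranes as carnitine esters, through CPT1, the translocase SLC25A20 and CPT2. Inside, rounds of dehydrogenation, hydration, further dehydrogenation and thiolysis release acetyl-CoA, and the electrons pass through the electron transfer flavoprotein to the respiratory chain. Peroxisomes import very long-chain and branched acyl-CoA through ABCD transporters and shorten it with enzymes of their own. In macrophages, IL-4 is known for alternative activation with a raised capacity to oxidize fatty acids, and IFN-gamma for classical activation.

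Ldha, which encodes the A chain of lactate dehydrogenase, stood in KO groups at 17.5 to 25.6% of its mean in the matching WT groups, and the lysozyme gene Lyz2 at 0.0866 to 0.133%. A KO to WT difference therefore cannot be told apart from a difference due to loss of Lyz2 or to another difference between the animals. Depth was 9.77 to 49.5 M reads per library (median 30.9 M), and the 34 genes took 0.218 to 0.252% of them. Both ends of the range of depth were in the WT IL-4 group, replicate 2 at 9.77 M and replicate 3 at 49.5 M. In both genotypes the activation markers Nos2, Cxcl9 and Irf1 rose with IFN-gamma, and Arg1, Retnla, Chil3 and Mrc1 rose with IL-4. Nos2 and Irf1 also rose with IL-4 in both genotypes, by less (Nos2 by 5.46 in KO and 3.28 in WT with IL-4, on the log2 scale), while Cxcl9 fell. Arg1 also rose with IFN-gamma in KO macrophages, by 2.46, and Mrc1 fell with IFN-gamma in both genotypes. All 8 macrophage markers averaged at least 10 normalized counts in every group. WT IFN-gamma replicate 1 differed from replicates 2 and 3 by a chi-square per gene of 54.7 and 60.4, against 4.38 between replicates 2 and 3, and values without it are given where it changed a call. In the other 5 groups this value lay between 10.4 and 60.0.

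Values below are normalized counts (reads per gene scaled by the authors with a size factor for each library), listed in the order of replicates 1 to 3. A change is a log2 fold change ± SE that limma gave on log2(normalized count + 1), which understates changes of low genes. A gene was called, and is said to have risen or fallen, when its p-value adjusted by the Benjamini-Hochberg method over 14288 genes was under 0.05. In bulk RNA, fewer cells of a type and less RNA per cell cannot be told apart.

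Between genes, levels were compared only as mean normalized counts per kilobase of the principal transcript. In untreated macrophages the peroxisomal thiolase gene Acaa1a ranked first of the 34 in both genotypes, with 2057 per kilobase in KO and 1953 in WT macrophages. Hsd17b10, which encodes a mitochondrial hydroxyacyl-CoA dehydrogenase, came next with 1692 in KO and 1915 in WT macrophages. The 3 lowest were Acad10, a member of the acyl-CoA dehydrogenase family (48.1 in KO and 50.5 in WT), Ehhadh, which encodes the peroxisomal L-bifunctional enzyme (45.6 in KO and 45.4 in WT), and the coactivator Ppargc1b (26.0 in KO and 25.8 in WT). With IFN-gamma the acyl-CoA synthetase gene Acsl1 took the first place in both genotypes (7518 in KO and 5630 in WT), against 515 in KO and 477 in WT macrophages without treatment. With IL-4 the first place went to Hsd17b10 (3655 in KO and 3535 in WT). No test was run on these levels.

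The first comparison was IL-4 against no treatment. In KO macrophages 18 of 34 rose, 2 fell and 14 were not called, and in WT macrophages 18 of 34 rose, 0 fell and 16 were not called. Among all 14288 genes 30.2% were called in KO macrophages, 15.8% higher and 14.5% lower. In WT macrophages 30.3% were called, 16.3% higher and 14% lower. The median change of the 34 genes was 0.25 in KO and 0.24 in WT macrophages, against a median over all genes of 0.00076 in KO and -0.013 in WT macrophages. The 34 genes were chosen with earlier results of these data known. Of 32 other fatty acid oxidation genes tested, 8 rose and 1 fell in KO macrophages, with a median change of 0.088. In WT macrophages 6 of them rose and 2 fell, with a median change of 0.14. The count of 0 lower genes in WT macrophages was also 0 with edgeR and with DESeq2, and 21 of the 34 genes had an unadjusted p under 0.05 in that comparison. With the animal as a block, 2 genes were lower there, Cpt1a and Crot.

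The genes that rose with IL-4 covered the mitochondrial spiral from the first dehydrogenation to electron transfer. Of the 6 genes of hydration, hydroxyacyl dehydrogenation and thiolysis, 5 rose in each genotype, and both genes of electron transfer rose in each genotype. Echs1, which encodes short-chain enoyl-CoA hydratase, stood at 2962, 2884 and 2563 with IL-4 against 1464, 1401 and 1402 untreated in KO macrophages. In WT macrophages Echs1 stood at 3210.2, 3269 and 3191 with IL-4 against 1826, 1748 and 1641 untreated. All IL-4 libraries lay above all untreated libraries of their genotype, with changes of 0.98 ± 0.076 in KO macrophages (adjusted p = 3.08e-08) and 0.89 ± 0.076 in WT macrophages (adjusted p = 1.15e-07). Hsd17b10 stood at 3592, 3705 and 3252 with IL-4 against 1610.5, 1645 and 1628.9 untreated in KO macrophages. In WT macrophages Hsd17b10 stood at 3683, 3328 and 3191 with IL-4 against 2048, 1808 and 1672 untreated. Its IL-4 libraries also lay apart from the untreated ones, with changes of 1.11 ± 0.10 in KO macrophages (adjusted p = 2.74e-07) and 0.89 ± 0.10 in WT macrophages (adjusted p = 4.21e-06). Acaa2, the gene of the mitochondrial thiolase for medium chains, rose by 0.30 ± 0.092 in KO macrophages (adjusted p = 0.02) and 0.34 ± 0.092 in WT macrophages (adjusted p = 0.00865). Hadh, the gene of the short-chain hydroxyacyl-CoA dehydrogenase, was the member of this group that was not called, at 0.012 ± 0.12 in KO and 0.02 ± 0.12 in WT macrophages.

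Hadha and Hadhb encode the alpha and beta subunits of the mitochondrial trifunctional protein, which carries out the last 3 steps of the spiral on long chains. Hadha stood at 4918, 4882 and 4439.6 with IL-4 against 3773, 3773 and 3695 untreated in KO macrophages. In WT macrophages Hadha stood at 4803, 5685 and 5559 with IL-4 against 3690.4, 3870 and 3777 untreated. Its IL-4 libraries were above its untreated ones in each genotype. Hadhb stood at 1311, 1182 and 1137 with IL-4 against 901, 991 and 894 untreated in KO macrophages. In WT macrophages Hadhb stood at 1178, 1334 and 1320.3 with IL-4 against 986, 957 and 1077 untreated. Neither gene had an IL-4 library within the range of its untreated libraries. The changes were 0.34 ± 0.065 in KO macrophages (adjusted p = 0.000575) and 0.50 ± 0.065 in WT macrophages (adjusted p = 1.4e-05) for Hadha, and 0.38 ± 0.081 in KO macrophages (adjusted p = 0.00155) and 0.34 ± 0.081 in WT macrophages (adjusted p = 0.00367) for Hadhb.

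Both subunit genes lie head to head on chromosome 5 of GRCm38: Hadha at 30118304 to 30155162 on the minus strand and Hadhb at 30155248 to 30184593 on the plus strand. The 85 bases between these ends are shown because both genes are transcribed away from this stretch and both rose with IL-4. The sequence is from RefSeq, GRCm38.p6, plus strand.
Hadha-Hadhb gap, chr5:30155163-30155247: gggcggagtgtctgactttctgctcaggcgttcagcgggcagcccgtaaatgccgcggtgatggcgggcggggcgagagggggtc
The gap has a GC content of 69.4% and holds none of the 4 motifs searched.

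Etfa, the alpha subunit gene of the electron transfer flavoprotein, stood at 3309.8, 2928 and 2679 with IL-4 against 1769, 1736 and 1717 untreated in KO macrophages. In WT macrophages Etfa stood at 2435, 2944 and 2676 with IL-4 against 1886, 1841 and 1812 untreated. The IL-4 libraries were above the untreated ones in each genotype, with changes of 0.77 ± 0.085 in KO macrophages (adjusted p = 2.25e-06) and 0.54 ± 0.085 in WT macrophages (adjusted p = 0.000113). Etfdh, which encodes the dehydrogenase that hands these electrons to ubiquinone, rose by 0.40 ± 0.069 in KO macrophages (adjusted p = 0.000198) and 0.43 ± 0.069 in WT macrophages (adjusted p = 0.000118).

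Among the acyl-CoA dehydrogenases, 2 of 6 rose with IL-4 in each genotype. Acadl, the gene of the long-chain enzyme, stood at 4413, 4158 and 4114 with IL-4 against 3023, 3013 and 3037 untreated in KO macrophages. In WT macrophages Acadl stood at 5138, 4892 and 4532 with IL-4 against 3554, 3339.5 and 3132 untreated. IL-4 and untreated libraries did not overlap, and the changes were 0.48 ± 0.097 in KO macrophages (adjusted p = 0.000879) and 0.54 ± 0.097 in WT macrophages (adjusted p = 0.000349). Acads, the gene of the short-chain enzyme, rose by 0.24 ± 0.083 in KO macrophages (adjusted p = 0.034) and 0.32 ± 0.083 in WT macrophages (adjusted p = 0.0065). Acadm, the gene of the medium-chain enzyme, stood at 2751, 2517 and 2180.3 with IL-4 against 2186, 2084 and 2124 untreated in KO macrophages. In WT macrophages Acadm stood at 1949.7, 2538 and 2643 with IL-4 against 2072, 2202 and 2125 untreated. It was not called, with changes of 0.21 ± 0.10 in KO macrophages (adjusted p = 0.127) and 0.14 ± 0.10 in WT macrophages (adjusted p = 0.306), although the KO change was called with the animal as a block (adjusted p = 0.0441). Acadvl, the gene of the very long-chain enzyme, had changes of 0.028 ± 0.076 in KO macrophages (adjusted p = 0.828) and 0.10 ± 0.076 in WT macrophages (adjusted p = 0.371) and was not called.

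In the carnitine shuttle the genes did not move together. Crat, which encodes the mitochondrial carnitine acetyltransferase, stood at 3094, 2931 and 2776 with IL-4 against 2169, 2183 and 2159.6 untreated in KO macrophages. In WT macrophages Crat stood at 2940.4, 3003 and 3348 with IL-4 against 2298, 2372 and 2335 untreated. Its IL-4 libraries were above its untreated ones in both genotypes, by 0.43 ± 0.064 in KO macrophages (adjusted p = 4.87e-05) and 0.41 ± 0.064 in WT macrophages (adjusted p = 0.000106). Cpt1a, the liver-type CPT1 of the outer membrane, stood at 3009, 3396 and 3396 with IL-4 against 3348, 3832 and 4227 untreated in KO macrophages. In WT macrophages Cpt1a stood at 2947, 3302 and 3688 with IL-4 against 4136, 3938 and 3778 untreated. It was not called in either genotype, at -0.21 ± 0.10 in KO macrophages (adjusted p = 0.125) and -0.26 ± 0.10 in WT macrophages (adjusted p = 0.0614), although the WT change was called with the animal as a block (adjusted p = 0.0246). Cpt2, of the inner membrane, rose in WT macrophages and was not called in KO macrophages, with changes of 0.18 ± 0.074 in KO macrophages (adjusted p = 0.0775) and 0.30 ± 0.074 in WT macrophages (adjusted p = 0.00562). Slc25a20 was not called, with changes of 0.11 ± 0.097 in KO macrophages (adjusted p = 0.434) and 0.24 ± 0.097 in WT macrophages (adjusted p = 0.0683). Crot, the gene of the peroxisomal carnitine octanoyltransferase, fell in KO macrophages, with changes of -0.37 ± 0.098 in KO macrophages (adjusted p = 0.00775) and -0.25 ± 0.098 in WT macrophages (adjusted p = 0.0655), and the WT change was called with the animal as a block (adjusted p = 0.0463). The differences between genotypes in these responses were not called for any of the 34 genes.

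The acyl-CoA synthetases differed as well. Acsl3, whose product sits at the endoplasmic reticulum and lipid droplets, stood at 1950.2, 1878 and 1687 with IL-4 against 1154, 1027 and 945 untreated in KO macrophages. In WT macrophages Acsl3 stood at 1992, 1898 and 2260 with IL-4 against 1278, 1277 and 1164 untreated. Every IL-4 library was above every untreated library of its genotype, and the changes were 0.82 ± 0.097 in KO macrophages (adjusted p = 4.51e-06) and 0.72 ± 0.097 in WT macrophages (adjusted p = 2.03e-05). Acsl4, whose product prefers arachidonic acid, rose by 0.31 ± 0.098 in KO macrophages (adjusted p = 0.0205) and 0.50 ± 0.098 in WT macrophages (adjusted p = 0.000721). Acsl5 rose in KO macrophages, with changes of 0.27 ± 0.092 in KO macrophages (adjusted p = 0.0319) and 0.15 ± 0.092 in WT macrophages (adjusted p = 0.236). Acsl1 stood at 1840.3, 1873 and 2348 with IL-4 against 1915, 1929.8 and 2178 untreated in KO macrophages, and at 2109, 1482 and 1526 with IL-4 against 2018, 1787 and 1767 untreated in WT macrophages, with changes of 0.0027 ± 0.13 in KO macrophages (adjusted p = 0.993) and -0.14 ± 0.13 in WT macrophages (adjusted p = 0.439), and was not called.

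Among the peroxisomal genes, Abcd2 had the largest IL-4 change of the 34 genes in WT macrophages and was exceeded by Ppargc1b in KO macrophages. Abcd2, which encodes a transporter of very long-chain acyl-CoA, stood at 1236, 1347 and 1394 with IL-4 against 412, 552 and 563 untreated in KO macrophages. In WT macrophages Abcd2 stood at 1885, 1895 and 1838 with IL-4 against 845, 777 and 751 untreated. The IL-4 libraries lay apart from the untreated ones, with ratios of means of 2.61 in KO and 2.37 in WT macrophages and changes of 1.39 ± 0.11 in KO macrophages (adjusted p = 4.94e-08) and 1.25 ± 0.11 in WT macrophages (adjusted p = 2.34e-07). Abcd3, the gene of a related transporter, rose by 0.29 ± 0.073 in KO macrophages (adjusted p = 0.00526) and 0.24 ± 0.073 in WT macrophages (adjusted p = 0.0177). Hsd17b4, the gene of the D-bifunctional enzyme, rose in WT macrophages, with changes of 0.12 ± 0.090 in KO macrophages (adjusted p = 0.334) and 0.24 ± 0.090 in WT macrophages (adjusted p = 0.0474). Ehhadh fell in KO macrophages, with changes of -0.58 ± 0.21 in KO macrophages (adjusted p = 0.0474) and -0.12 ± 0.21 in WT macrophages (adjusted p = 0.718).

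Ppargc1b encodes PGC-1beta, a coactivator known for raising mitochondrial genes in macrophages with IL-4. It stood at 283, 312 and 329 with IL-4 against 98.7, 99.6 and 86.5 untreated in KO macrophages. In WT macrophages Ppargc1b stood at 199, 157 and 234 with IL-4 against 115, 83.9 and 83.6 untreated. The IL-4 libraries did not overlap the untreated ones, and the ratios of means were 3.25 in KO and 2.09 in WT macrophages, with changes of 1.69 ± 0.15 in KO macrophages (adjusted p = 1.27e-07) and 1.05 ± 0.15 in WT macrophages (adjusted p = 2.96e-05). Of the auxiliary enzymes, the dienoyl-CoA reductase gene Decr1 rose by 0.25 ± 0.085 in KO macrophages (adjusted p = 0.0308) and 0.28 ± 0.085 in WT macrophages (adjusted p = 0.0174), and the enoyl-CoA isomerase gene Eci1 rose in KO macrophages, with changes of 0.35 ± 0.10 in KO macrophages (adjusted p = 0.0168) and 0.22 ± 0.10 in WT macrophages (adjusted p = 0.124).

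Some IL-4 calls rested on single libraries or settings. Library names below stand for replicates, so that KO IL-4 1 is replicate 1 of that group. In KO macrophages the call was lost for Acsl4 without KO untreated 2 or 3 or KO IL-4 3 (adjusted p = 0.0539 to 0.105), Acsl5 without KO untreated 1, 2 or 3 or KO IL-4 1 or 2 (adjusted p = 0.0556 to 0.115), Acads without KO untreated 1 or 2 or KO IL-4 1, without the filter or when fitted on its own groups (adjusted p = 0.0508 to 0.161), Acaa2 without KO untreated 1 or 2 or KO IL-4 1 or 2 (adjusted p = 0.0563 to 0.0906), Eci1 without KO untreated 1 or KO IL-4 1 (adjusted p = 0.0789 to 0.085), Decr1 without KO untreated 2 or 3 or KO IL-4 1 or 2 (adjusted p = 0.0634 to 0.132) and Ehhadh without KO untreated 1, 2 or 3 or KO IL-4 1 or 2 or without the filter (adjusted p = 0.0684 to 0.163). In WT macrophages it was lost for Acaa2 without WT untreated 3 (adjusted p = 0.06), Decr1 without WT untreated 1 or WT IL-4 2 or 3 (adjusted p = 0.0519 to 0.0666), Abcd3 without WT untreated 2 (adjusted p = 0.0636) and Hsd17b4 without WT untreated 1, 2 or 3 or WT IL-4 2 or 3, without the filter, with TMM-type factors, with edgeR on recovered reads or when fitted on its own groups (adjusted p = 0.0595 to 0.152). Further genes were called under single alternatives. In KO macrophages Cpt1a was called without KO untreated 1, at -0.30 (adjusted p = 0.0473). Cpt2 was called without KO untreated 3, at 0.24 (adjusted p = 0.037). Acadm was called without KO IL-4 3 or with the animal as a block, at 0.21 to 0.30 (adjusted p = 0.0352 to 0.0441). Acad10 was called at pseudocount 5, with TMM-type factors, with edgeR on recovered reads, with DESeq2 on recovered reads or when fitted on its own groups, at -0.40 to -0.38 (adjusted p = 0.0205 to 0.0498). In WT macrophages Acsl5 was called without WT IL-4 1, at 0.25 (adjusted p = 0.0392). Cpt1a was called without WT IL-4 3 or with the animal as a block, at -0.34 to -0.26 (adjusted p = 0.0246 to 0.0273). Slc25a20 was called when fitted on its own groups, at 0.24 (adjusted p = 0.0432). Crot was called without WT IL-4 1 or with the animal as a block, at -0.36 to -0.25 (adjusted p = 0.00627 to 0.0463). Acadm was called without WT IL-4 1, at 0.28 (adjusted p = 0.0219).

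The second comparison was IFN-gamma against no treatment, which shares the untreated libraries with the IL-4 comparison. In KO macrophages 7 of 34 rose, 13 fell and 14 were not called, and in WT macrophages 7 of 34 rose, 17 fell and 10 were not called. Of all genes 55.8% were called in KO macrophages, 28.3% higher and 27.5% lower. In WT macrophages it was 62.4%, 31.4% higher and 31.1% lower. The medians of the 34 genes were -0.077 in KO and -0.17 in WT macrophages, against -0.013 in KO and -0.011 in WT macrophages over all genes. Calls were thus common among all genes in this comparison, in both directions.

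The largest change of the 34 genes was that of Acsl1, the synthetase gene of long-chain fatty acids that is known to be raised in inflammatory macrophages. It stood at 32360, 27260 and 28270 with IFN-gamma against 1915, 1929.8 and 2178 untreated in KO macrophages. In WT macrophages Acsl1 stood at 24659, 20797 and 20369 with IFN-gamma against 2018, 1787 and 1767 untreated. The IFN-gamma libraries were far above the untreated ones, with ratios of means of 14.6 in KO and 11.8 in WT macrophages and changes of 3.87 ± 0.13 in KO macrophages (adjusted p = 6.16e-14) and 3.56 ± 0.13 in WT macrophages (adjusted p = 1.45e-13). Acsl3 fell instead, with changes of -1.005 ± 0.097 in KO macrophages (adjusted p = 9.34e-08) and -0.79 ± 0.097 in WT macrophages (adjusted p = 1.63e-06). Acsl4 stood at 4618, 5578 and 6094 with IFN-gamma against 5525, 5052 and 5284 untreated in KO macrophages. In WT macrophages Acsl4 stood at 8282, 7816 and 8378 with IFN-gamma against 4982, 4779 and 4928 untreated. The IFN-gamma libraries lay above the untreated ones in WT macrophages and overlapped them in KO macrophages, with changes of 0.03 ± 0.098 in KO macrophages (adjusted p = 0.814) and 0.74 ± 0.098 in WT macrophages (adjusted p = 3.71e-06).

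Slc25a20, the gene of the carnitine-acylcarnitine translocase, stood at 1661, 1737 and 1835 with IFN-gamma against 962, 1006 and 1099.8 untreated in KO macrophages. In WT macrophages Slc25a20 stood at 4169, 3225 and 3129.6 with IFN-gamma against 1062, 992 and 945 untreated. It was above its untreated range in both genotypes, with ratios of means of 1.71 in KO and 3.51 in WT macrophages and changes of 0.77 ± 0.097 in KO macrophages (adjusted p = 2.27e-06) and 1.80 ± 0.097 in WT macrophages (adjusted p = 2.85e-11). The enzymes on either side of the carrier were not called: Cpt1a changed by 0.074 ± 0.10 in KO macrophages (adjusted p = 0.558) and -0.15 ± 0.10 in WT macrophages (adjusted p = 0.201), and Cpt2 by -0.03 ± 0.074 in KO macrophages (adjusted p = 0.751) and 0.12 ± 0.074 in WT macrophages (adjusted p = 0.161). Crot fell, with changes of -0.57 ± 0.098 in KO macrophages (adjusted p = 7.18e-05) and -0.24 ± 0.098 in WT macrophages (adjusted p = 0.0384). Crat fell in WT macrophages and was not called in KO macrophages, with changes of 0.10 ± 0.064 in KO macrophages (adjusted p = 0.179) and -0.28 ± 0.064 in WT macrophages (adjusted p = 0.000994).

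The stretches upstream of Acsl1 and Slc25a20 are shown as the 2 genes of fatty acid entry that rose with IFN-gamma in both genotypes. The Slc25a20 sequence runs up to its annotated start, and the Acsl1 sequence up to the more upstream of the starts that RefSeq annotates; both are from RefSeq, GRCm38.p6, plus strand, 5′ to 3′.
Slc25a20 upstream, chr9:108661886-108662087: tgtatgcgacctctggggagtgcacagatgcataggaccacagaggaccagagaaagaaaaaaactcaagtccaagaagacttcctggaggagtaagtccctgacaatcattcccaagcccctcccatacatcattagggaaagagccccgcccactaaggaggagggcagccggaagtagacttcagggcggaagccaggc
Acsl1 upstream, chr8:46470787-46471036: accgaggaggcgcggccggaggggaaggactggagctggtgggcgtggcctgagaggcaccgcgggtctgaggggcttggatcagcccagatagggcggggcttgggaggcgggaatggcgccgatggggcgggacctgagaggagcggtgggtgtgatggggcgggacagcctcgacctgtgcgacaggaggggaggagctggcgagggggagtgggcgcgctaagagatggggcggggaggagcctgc
Their GC contents are 54.0% and 72.0%. Neither stretch holds a match to any of the 4 motifs searched, so no base is in capitals. Another Acsl1 start that RefSeq annotates, not shown, has matches to the CCAAT motif at -172 and -49 bases from it. Which start these macrophages use was not tested.

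Ppargc1b also rose with IFN-gamma. It stood at 581, 601 and 543 with IFN-gamma against 98.7, 99.6 and 86.5 untreated in KO macrophages. In WT macrophages Ppargc1b stood at 527, 582 and 558 with IFN-gamma against 115, 83.9 and 83.6 untreated. Libraries of the treatments did not overlap, and the changes of 2.59 ± 0.15 in KO macrophages (adjusted p = 7.65e-11) and 2.56 ± 0.15 in WT macrophages (adjusted p = 7.07e-11) were larger than those with IL-4 in the same genotype.

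The mitochondrial dehydrogenases fell more often than they rose, with 1 higher and 3 lower in KO and 1 higher and 4 lower in WT macrophages out of 6. Acadm stood at 1408, 1337 and 1276 with IFN-gamma against 2186, 2084 and 2124 untreated in KO macrophages. In WT macrophages Acadm stood at 1183, 1340.4 and 1291 with IFN-gamma against 2072, 2202 and 2125 untreated. Its IFN-gamma libraries lay below its untreated ones, with changes of -0.67 ± 0.10 in KO macrophages (adjusted p = 2.06e-05) and -0.75 ± 0.10 in WT macrophages (adjusted p = 4.8e-06). Acads stood at 648, 577 and 663 with IFN-gamma against 1067, 1085 and 1185 untreated in KO macrophages, and at 504, 514 and 501 with IFN-gamma against 1164, 1115 and 1041 untreated in WT macrophages, again without overlap, and changed by -0.82 ± 0.083 in KO macrophages (adjusted p = 1.52e-07) and -1.12 ± 0.083 in WT macrophages (adjusted p = 1.91e-09). Acad10 fell, with changes of -0.52 ± 0.14 in KO macrophages (adjusted p = 0.00555) and -1.07 ± 0.14 in WT macrophages (adjusted p = 4.59e-06). Acad9, which is also known as an assembly factor of respiratory complex I, fell in WT macrophages, with changes of -0.11 ± 0.12 in KO macrophages (adjusted p = 0.417) and -0.33 ± 0.12 in WT macrophages (adjusted p = 0.02). Acadl was not called, at -0.073 ± 0.097 in KO macrophages (adjusted p = 0.546) and 0.18 ± 0.097 in WT macrophages (adjusted p = 0.119).

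Acadvl rose, with changes of 0.31 ± 0.076 in KO macrophages (adjusted p = 0.00206) and 0.43 ± 0.076 in WT macrophages (adjusted p = 8.4e-05). Its value is uncertain, because 42.9% of its exon bases overlap Dvl2 on the opposite strand and no strand setting of the counting is given in the sources used here. Dvl2 itself changed by -0.24 in KO macrophages (adjusted p = 0.037) and -0.87 in WT macrophages (adjusted p = 2.32e-07). For the other 33 genes, exon overlap with a gene on the opposite strand covered at most 9.91% of exon bases (Acsl1 with Gm45244, which averaged 22.3 normalized counts).

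Of the 6 genes of the later steps of the spiral, 3 were called with IFN-gamma in KO macrophages, all lower, and 6 in WT macrophages, 5 of them lower. Acaa2 stood at 540.5, 495 and 538 with IFN-gamma against 939, 987 and 1044 untreated in KO macrophages. In WT macrophages Acaa2 stood at 625, 638 and 596 with IFN-gamma against 1212, 1213 and 1050.5 untreated. No IFN-gamma library reached the untreated range, and the changes were -0.91 ± 0.092 in KO macrophages (adjusted p = 1.55e-07) and -0.90 ± 0.092 in WT macrophages (adjusted p = 1.5e-07). Hadh stood at 871, 781 and 769.6 with IFN-gamma against 1276, 1269.8 and 1346 untreated in KO macrophages, and at 582, 859 and 856 with IFN-gamma against 1347, 1345 and 1342 untreated in WT macrophages, also without overlap, and changed by -0.69 ± 0.12 in KO macrophages (adjusted p = 0.000144) and -0.83 ± 0.12 in WT macrophages (adjusted p = 1.44e-05). Echs1 and Hsd17b10 fell in WT macrophages. Echs1 changed by -0.18 ± 0.076 in KO macrophages (adjusted p = 0.053) and -0.38 ± 0.076 in WT macrophages (adjusted p = 0.000308). Hsd17b10 changed by -0.081 ± 0.10 in KO macrophages (adjusted p = 0.529) and -0.42 ± 0.10 in WT macrophages (adjusted p = 0.00169).

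The head-to-head pair Hadha and Hadhb, which rose together with IL-4, split with IFN-gamma in WT macrophages. Hadha stood at 3150.2, 3065 and 3024 with IFN-gamma against 3773, 3773 and 3695 untreated in KO macrophages, and at 3362, 3299.7 and 3347 with IFN-gamma against 3690.4, 3870 and 3777 untreated in WT macrophages, and it fell, with changes of -0.28 ± 0.065 in KO macrophages (adjusted p = 0.0012) and -0.18 ± 0.065 in WT macrophages (adjusted p = 0.0229). Hadhb stood at 923, 999 and 1038 with IFN-gamma against 901, 991 and 894 untreated in KO macrophages, and at 1294, 1171 and 1249 with IFN-gamma against 986, 957 and 1077 untreated in WT macrophages, and it rose in WT macrophages and was not called in KO macrophages, with changes of 0.088 ± 0.081 in KO macrophages (adjusted p = 0.378) and 0.30 ± 0.081 in WT macrophages (adjusted p = 0.00402). The WT libraries with IFN-gamma thus lay below the untreated ones for Hadha and above them for Hadhb. Of the auxiliary enzymes, Decr1 fell, with changes of -0.87 ± 0.085 in KO macrophages (adjusted p = 1.09e-07) and -0.58 ± 0.085 in WT macrophages (adjusted p = 1.1e-05), and Decr2, the peroxisomal dienoyl-CoA reductase gene, fell as well, with changes of -0.34 ± 0.086 in KO macrophages (adjusted p = 0.00284) and -0.30 ± 0.086 in WT macrophages (adjusted p = 0.00573). Neither electron transfer gene was called, with changes of -0.045 to -0.029 in KO and -0.083 to -0.0084 in WT macrophages.

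The peroxisomal genes moved in both directions, with 3 higher and 3 lower in KO and 1 higher and 3 lower in WT macrophages out of 6. Abcd2, highest with IL-4, stood at 47.6, 53.7 and 49.6 with IFN-gamma against 412, 552 and 563 untreated in KO macrophages. In WT macrophages Abcd2 stood at 204, 169 and 182 with IFN-gamma against 845, 777 and 751 untreated. Its IFN-gamma libraries lay far below the untreated ones, at 10.1-fold lower means in KO and 4.27-fold lower means in WT macrophages, with changes of -3.30 ± 0.11 in KO macrophages (adjusted p = 1.16e-13) and -2.09 ± 0.11 in WT macrophages (adjusted p = 3.16e-11). Ehhadh stood at 67.8, 62.3 and 49.6 with IFN-gamma against 129, 139 and 139 untreated in KO macrophages, and at 40.3, 62.0 and 70.8 with IFN-gamma against 114, 139.8 and 152 untreated in WT macrophages and fell, with changes of -1.18 ± 0.21 in KO macrophages (adjusted p = 0.000133) and -1.24 ± 0.21 in WT macrophages (adjusted p = 6.3e-05). Hsd17b4 stood at 2125, 2052 and 1932 with IFN-gamma against 4359, 4206 and 4195 untreated in KO macrophages, and at 1672, 2076 and 2084 with IFN-gamma against 4091, 4025 and 3879 untreated in WT macrophages and fell, with changes of -1.06 ± 0.090 in KO macrophages (adjusted p = 1.5e-08) and -1.05 ± 0.090 in WT macrophages (adjusted p = 1.41e-08). Both bifunctional enzyme genes thus lay below their untreated ranges in both genotypes.

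Acaa1a rose, with changes of 0.23 ± 0.085 in KO macrophages (adjusted p = 0.0263) and 0.35 ± 0.085 in WT macrophages (adjusted p = 0.00164). Acaa1b, its near-identical copy with which reads can be shared, averaged at most 1.48 normalized counts in any group. Acox3, an oxidase gene of branched chains, and Abcd3 rose in KO macrophages. Acox3 changed by 0.38 ± 0.074 in KO macrophages (adjusted p = 0.000274) and 0.10 ± 0.074 in WT macrophages (adjusted p = 0.242), and Abcd3 by 0.22 ± 0.073 in KO macrophages (adjusted p = 0.0171) and 0.15 ± 0.073 in WT macrophages (adjusted p = 0.0825). The IFN-gamma call was lost in KO macrophages for Abcd3 without KO untreated 2 or KO IFN-gamma 2 (adjusted p = 0.0643 to 0.0994) and Acaa1a without KO untreated 1, 2 or 3 or KO IFN-gamma 1 (adjusted p = 0.053 to 0.159; 0.15 without KO IFN-gamma 1). In WT macrophages it was lost for Crot without WT untreated 1, 2 or 3 or WT IFN-gamma 1 or 2 or without the filter (adjusted p = 0.0523 to 0.134), Acad9 without WT untreated 1 or WT IFN-gamma 1 or when fitted on its own groups (adjusted p = 0.0727 to 0.139; -0.16 without WT IFN-gamma 1) and Hadha without WT untreated 2 or 3 or WT IFN-gamma 2 (adjusted p = 0.0523 to 0.0776). Genes not called in the joint fit were called under single alternatives. In KO macrophages Echs1 was called without KO IFN-gamma 1, with TMM-type factors, with edgeR on recovered reads, when fitted on its own groups or with the animal as a block, at -0.23 to -0.18 (adjusted p = 0.0239 to 0.0453). Eci2 was called when fitted on its own groups, at -0.18 (adjusted p = 0.0493). In WT macrophages Acadl was called without WT IFN-gamma 2 or with the animal as a block, at 0.18 to 0.26 (adjusted p = 0.042 to 0.0449). Abcd3 was called without WT IFN-gamma 1, at 0.22 (adjusted p = 0.0128).

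**Figure D1:**
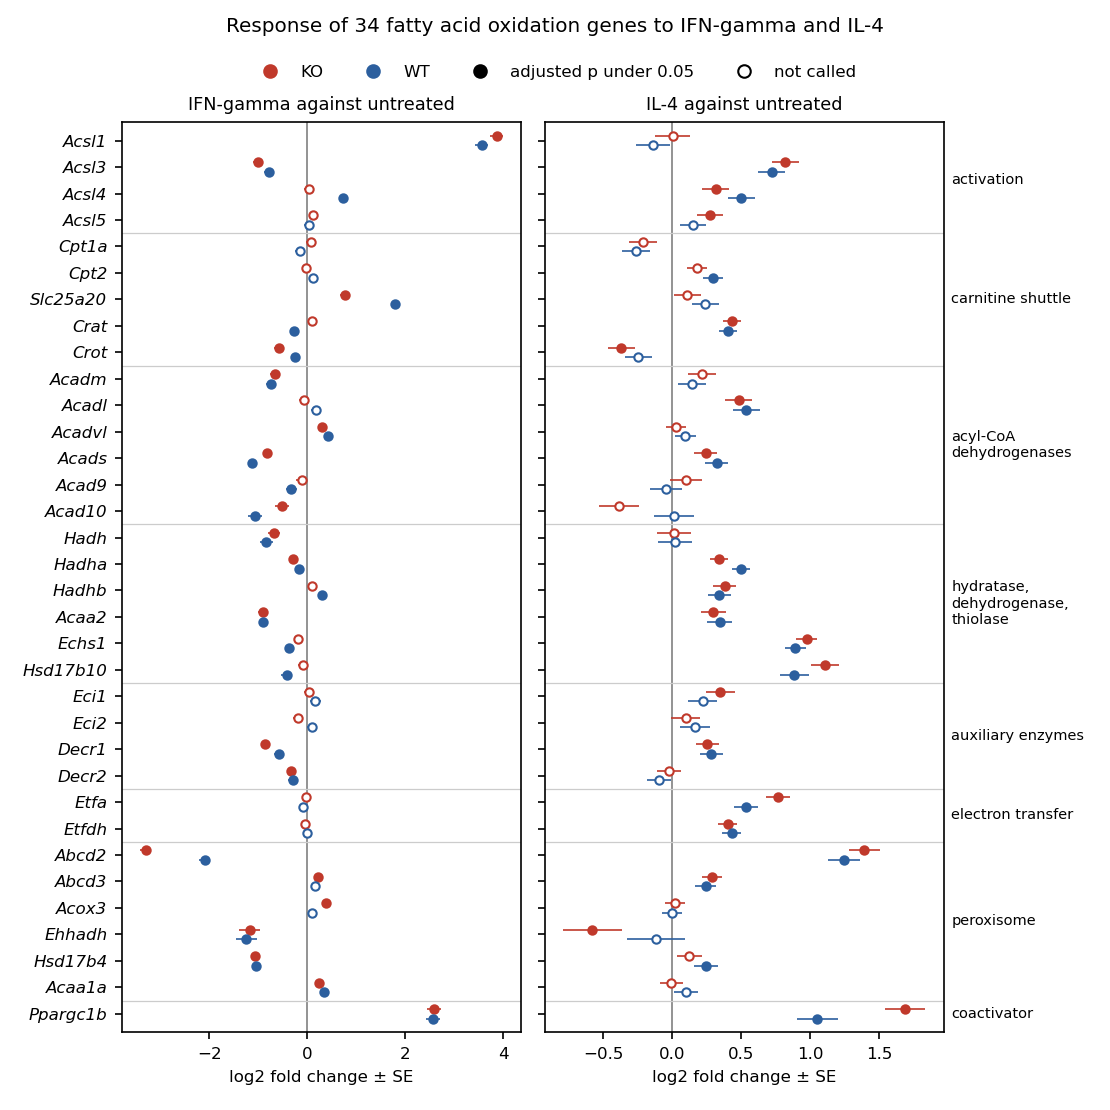
Log2 change ± SE of the 34 genes with IFN-gamma (left) and with IL-4 (right) against untreated macrophages of the same genotype, genes ordered by role, n = 3 libraries per group; the x axes of the panels differ in scale. Acsl1 and Ppargc1b stand far to the right and Abcd2 far to the left with IFN-gamma, while with IL-4 Abcd2, Ppargc1b, Echs1 and Hsd17b10 stand furthest to the right.

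Set directly against each other, IL-4 and IFN-gamma differed for most of the 34 genes. This comparison shares its libraries with both responses above and is no further evidence of them. In KO macrophages 22 genes were higher with IL-4, 7 were lower and 5 were not called, and in WT macrophages 19 were higher, 6 were lower and 9 were not called. Over all genes 55% were called in KO macrophages, 27.4% higher and 27.5% lower. The shares in WT macrophages were 60.5%, 29.7% higher and 30.8% lower. Abcd2 and Acsl1 differed most, Abcd2 by 4.69 ± 0.11 in KO macrophages (adjusted p = 5.1e-15) and 3.34 ± 0.11 in WT macrophages (adjusted p = 8.23e-14), and Acsl1 by -3.86 ± 0.13 in KO macrophages (adjusted p = 7.17e-14) and -3.70 ± 0.13 in WT macrophages (adjusted p = 9.06e-14). Acsl3 was higher with IL-4, by 1.83 ± 0.097 in KO macrophages (adjusted p = 3.8e-11) and 1.51 ± 0.097 in WT macrophages (adjusted p = 3.7e-10), as was Hsd17b10, by 1.19 ± 0.10 in KO macrophages (adjusted p = 2.29e-08) and 1.31 ± 0.10 in WT macrophages (adjusted p = 5.09e-09). All 6 genes of hydration, hydroxyacyl dehydrogenation and thiolysis were higher with IL-4 in KO macrophages, and 5 of 6 in WT macrophages, where Hadhb was not called (0.044 ± 0.081, adjusted p = 0.66). Lower with IL-4 in both genotypes were Acsl1, Slc25a20, Acadvl, Acaa1a and Ppargc1b. Cpt1a was lower with IL-4 in KO macrophages, at -0.29 ± 0.10 in KO macrophages (adjusted p = 0.0224) and -0.11 ± 0.10 in WT macrophages (adjusted p = 0.374).

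The call of IL-4 against IFN-gamma was lost in KO macrophages for Acsl4 without KO IFN-gamma 1 or KO IL-4 3 or when fitted on its own groups (adjusted p = 0.0821 to 0.134; 0.17 without KO IFN-gamma 1; 0.18 without KO IL-4 3), Cpt1a without KO IFN-gamma 3 or KO IL-4 1 (adjusted p = 0.0954 to 0.0968), Cpt2 without KO IFN-gamma 2 or KO IL-4 1 or 2 or when fitted on its own groups (adjusted p = 0.0555 to 0.074), Eci1 without KO IFN-gamma 3 or KO IL-4 1 (adjusted p = 0.0891 to 0.0947), Eci2 without KO IFN-gamma 1, 2 or 3 or KO IL-4 1 (adjusted p = 0.0538 to 0.128), Ehhadh without KO IFN-gamma 3 or KO IL-4 3 (adjusted p = 0.095 to 0.106) and Acaa1a without KO IFN-gamma 1 or KO IL-4 2 or 3 or when fitted on its own groups (adjusted p = 0.0589 to 0.141; -0.15 without KO IFN-gamma 1). In WT macrophages it was lost for Acsl4 without WT IFN-gamma 1, 2 or 3 or WT IL-4 2 or 3, without the filter, with TMM-type factors, with edgeR on recovered reads, with DESeq2 on recovered reads or when fitted on its own groups (adjusted p = 0.0501 to 0.164), Acad9 without WT IFN-gamma 1 or WT IL-4 1 or 3, without the filter or when fitted on its own groups (adjusted p = 0.0554 to 0.284; 0.12 without WT IFN-gamma 1), Decr2 without WT IFN-gamma 1 or 3 or WT IL-4 1 or 3, at pseudocount 5, without the filter, when fitted on its own groups or with the animal as a block (adjusted p = 0.0508 to 0.271; 0.11 without WT IL-4 3) and Acaa1a without WT IFN-gamma 1 (adjusted p = 0.0782). Genes not called in the joint fit were called under single alternatives. In WT macrophages Acsl5 was called without WT IL-4 1, at 0.22 (adjusted p = 0.0422). Cpt2 was called without WT IFN-gamma 2 or WT IL-4 1 or with TMM-type factors, at 0.18 to 0.22 (adjusted p = 0.0274 to 0.0499). Eci2 was called without WT IFN-gamma 1, at 0.22 (adjusted p = 0.0315). Acox3 was called without WT IL-4 1, at -0.19 (adjusted p = 0.0228).

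The next question was whether loss of Ldha changed these genes in each treatment. Without treatment 0 genes were higher, 1 was lower and 33 were not called, with 1.98% of all genes called, 1.46% higher and 0.525% lower. The 1 gene was Abcd2, at 412, 552 and 563 in KO macrophages, against 845, 777 and 751 in WT macrophages. All KO libraries lay below all WT libraries, with a change of -0.65 ± 0.11, adjusted p = 0.00418. Cpt1a stood at 3348, 3832 and 4227 in KO macrophages, against 4136, 3938 and 3778 in WT macrophages, and these ranges overlapped. The median change of the 34 genes was -0.047, against 0.006 over all genes. The count of 0 higher genes was also 0 with edgeR and DESeq2, and 4 genes had an unadjusted p under 0.05 in either direction. Echs1 had a change of -0.29 ± 0.076, adjusted p = 0.0632. Under alternatives, Echs1 was called with DESeq2 on recovered reads, when fitted on its own groups or with the replicate number as a block, at -0.29 (adjusted p = 0.0165 to 0.0201).

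With IFN-gamma the genotypes differed at more genes: 4 were higher in KO, 9 were lower and 21 were not called. Over all genes 27.9% were called, 14.3% higher and 13.6% lower. The median change of the 34 genes was -0.012, against 0.0089 over all genes. Abcd2 stood at 47.6, 53.7 and 49.6 in KO macrophages, against 204, 169 and 182 in WT macrophages. The mean was 3.68-fold lower in KO macrophages, a change of -1.86 ± 0.11, adjusted p = 1.32e-08. Slc25a20 stood at 1661, 1737 and 1835 in KO macrophages, against 4169, 3225 and 3129.6 in WT macrophages. The mean was 2.01-fold lower in KO macrophages, a change of -0.997 ± 0.097, adjusted p = 1.29e-06.

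Acsl4 stood at 4618, 5578 and 6094 in KO macrophages, against 8282, 7816 and 8378 in WT macrophages with IFN-gamma, again without overlap, and was lower, with a change of -0.60 ± 0.098, adjusted p = 0.00026. Acsl3 stood at 490.1, 573 and 491 in KO macrophages, against 655, 741 and 763 in WT macrophages, a change of -0.47 ± 0.097, adjusted p = 0.00173. Acsl1 went the other way among the synthetases, at 32360, 27260 and 28270 in KO macrophages, against 24659, 20797 and 20369 in WT macrophages. Its KO libraries lay above its WT libraries, by 0.42 ± 0.13, adjusted p = 0.0206. Crat stood at 2482, 2255 and 2269.8 in KO macrophages, against 1979, 1907 and 1876 in WT macrophages, higher in KO macrophages by 0.28 ± 0.064, adjusted p = 0.00368. Cpt2 was lower, with a change of -0.23 ± 0.074, adjusted p = 0.0281, and Cpt1a was not called (0.17 ± 0.10, adjusted p = 0.244).

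Inside mitochondria, Acadl stood at 2813, 2752 and 3073 in KO macrophages, against 4638, 3386 and 3426 in WT macrophages with IFN-gamma, lower in KO macrophages, with a change of -0.39 ± 0.097, adjusted p = 0.00602. Hadhb stood at 923, 999 and 1038 in KO macrophages, against 1294, 1171 and 1249 in WT macrophages, lower, with a change of -0.33 ± 0.081, adjusted p = 0.00643, while its neighbour Hadha was not called (-0.12 ± 0.065, adjusted p = 0.201). Decr1 and the isomerase gene Eci2 were lower, with changes of -0.33 ± 0.085, adjusted p = 0.00875 for Decr1, and -0.35 ± 0.11, adjusted p = 0.0207 for Eci2. Higher in KO macrophages were Acads (0.31 ± 0.083, adjusted p = 0.00997) and Acad10 (0.48 ± 0.14, adjusted p = 0.0189). In each of these 13 genes the KO and WT libraries did not overlap, which rests on the same libraries as the calls. The same held for Crot, Acadvl, Hadha, Acaa2 and Acox3, which were not called. The share of all genes without overlap was not counted.

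The call with IFN-gamma was lost for Acsl1 without KO IFN-gamma 1 or WT IFN-gamma 2 or 3 (adjusted p = 0.0642 to 0.095), Cpt2 without KO IFN-gamma 2 or 3 or WT IFN-gamma 2 or when fitted on its own groups (adjusted p = 0.0606 to 0.121), Acadl when fitted on its own groups (adjusted p = 0.0649), Acads when fitted on its own groups (adjusted p = 0.0519), Acad10 without KO IFN-gamma 1 or 3 or WT IFN-gamma 1 or 2 or when fitted on its own groups (adjusted p = 0.0535 to 0.105), Eci2 without KO IFN-gamma 2 or WT IFN-gamma 1 or when fitted on its own groups (adjusted p = 0.0622 to 0.109; -0.20 without WT IFN-gamma 1) and Decr1 when fitted on its own groups (adjusted p = 0.0634). Without WT IFN-gamma 1, the change of Acadl was -0.24 and still called (adjusted p = 0.022). Other genes were called under alternatives. Crot was called without WT IFN-gamma 1, with DESeq2 on recovered reads or with the replicate number as a block, at -0.30 to -0.25 (adjusted p = 0.0441 to 0.0491). Hsd17b10 was called without WT IFN-gamma 1, at 0.31 (adjusted p = 0.0151). With the IFN-gamma groups fitted alone 7 of the 34 genes were called, 2 higher and 5 lower. The share of all genes called in that fit is not given here, so this count is not set against it.

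With IL-4, 1 gene was higher in KO macrophages, 1 was lower and 32 were not called, with 6.59% of all genes called, 3.46% higher and 3.13% lower. Ppargc1b stood at 283, 312 and 329 in KO macrophages, against 199, 157 and 234 in WT macrophages, and Abcd2 at 1236, 1347 and 1394 in KO macrophages, against 1885, 1895 and 1838 in WT macrophages. The KO and WT libraries did not overlap for either gene, with changes of 0.66 ± 0.15, adjusted p = 0.012 for Ppargc1b, and -0.50 ± 0.11, adjusted p = 0.0134 for Abcd2. The call was lost for Abcd2 without KO IL-4 1 (adjusted p = 0.064) and Ppargc1b when fitted on its own groups (adjusted p = 0.176). Other genes were called under alternatives. Acsl1 was called without WT IL-4 1, at 0.42 (adjusted p = 0.0375). Acad10 was called without WT IL-4 3 or with DESeq2 on recovered reads, at -0.57 to -0.43 (adjusted p = 0.0403 to 0.0425). Hadha was called without WT IL-4 1, at -0.25 (adjusted p = 0.0238). With DESeq2 2 genes were thus lower, against 1 with limma. Hsd17b10, the most abundant of the genes per kilobase with IL-4, stood at 3592, 3705 and 3252 in KO macrophages, against 3683, 3328 and 3191 in WT macrophages and was not called (0.049 ± 0.10, adjusted p = 0.832).

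Averaged over the 3 treatments of each animal (n = 3 animals each), 0 genes were higher in KO, 4 were lower and 30 were not called, with 11.3% of all genes called, 6.33% higher and 5% lower. The changes were -1.001 ± 0.088, adjusted p = 0.000492 for Abcd2, -0.35 ± 0.062, adjusted p = 0.00953 for Slc25a20, -0.29 ± 0.066, adjusted p = 0.0246 for Acsl3, and -0.24 ± 0.055, adjusted p = 0.0256 for Acaa2. The count of 0 higher genes comes from limma, the only tool run on the animal means, and 12 genes had an unadjusted p under 0.05 in either direction. Left-out numbers here are animals, and the call was lost for Acsl3 without KO 2 or 3 or WT 2 or 3 or with the replicate number as a block (adjusted p = 0.0541 to 0.093) and Acaa2 without KO 1, 2 or 3 or WT 2 or 3 or with the replicate number as a block (adjusted p = 0.0545 to 0.0906). Other genes were called with an animal left out. Acsl1 was called without WT 1, at 0.37 (adjusted p = 0.00882). Acsl4 was called without KO 3, at -0.25 (adjusted p = 0.0458).

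Markers of other cells were summed in each library, and no test was run on the sums. For the stromal and fibroblast markers the KO and WT ranges overlapped in every treatment. Of the 5 stromal markers tested, 1 was higher in KO macrophages with IFN-gamma, and 0 were called with IL-4 or without treatment. The sum of 7 of 8 listed stromal and fibroblast markers was 225 to 876 in KO and 148 to 291 in WT libraries with IFN-gamma, 459 to 1416 in KO and 213 to 823 in WT libraries with IL-4, and 411 to 1479 in KO and 175 to 456 in WT libraries without treatment. The sum of 3 of 5 listed dendritic cell markers was 379 to 516 in KO and 741 to 1004 in WT libraries with IFN-gamma, 102 to 124 in KO and 21.9 to 47.0 in WT libraries with IL-4, and 10.6 to 24.3 in KO and 3.90 to 6.59 in WT libraries without treatment. Of these 3, 1 was higher, 1 lower and 1 not called in KO macrophages with IFN-gamma, with changes from -2.17 to 1.69. With IL-4, 1 was higher and 0 lower, and without treatment 0 were called. The sum of 2 of 6 listed neutrophil markers was 29.4 to 61.7 in KO and 0 to 4.72 in WT libraries with IFN-gamma. The 2 measured adipocyte markers summed to 20.0 to 25.2 in KO and 0 to 10.6 in WT libraries with IL-4, where Adipoq was called higher in KO macrophages (2.54 ± 0.70, adjusted p = 0.0372), and to at most 8.84 in any other library. Adipoq was at 0 in WT libraries with IFN-gamma and without treatment. The sum of the 8 macrophage markers did not overlap between genotypes with either cytokine. It was 211460 to 227270 in KO and 251290 to 278380 in WT libraries with IFN-gamma, 194240 to 214290 in KO and 238370 to 260860 in WT libraries with IL-4, and 243030 to 271390 in KO and 252040 to 264280 in WT libraries without treatment. Of the 8, 3 were higher and 3 lower in KO macrophages with IFN-gamma, 0 higher and 4 lower with IL-4, and 0 higher and 1 lower without treatment. The 2 measured T and B cell markers summed to at most 16.5 in any library, and the 1 measured erythroid marker reached at most 6.55. The part of these cell types in the KO to WT differences was not tested.

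**Figure D2:**
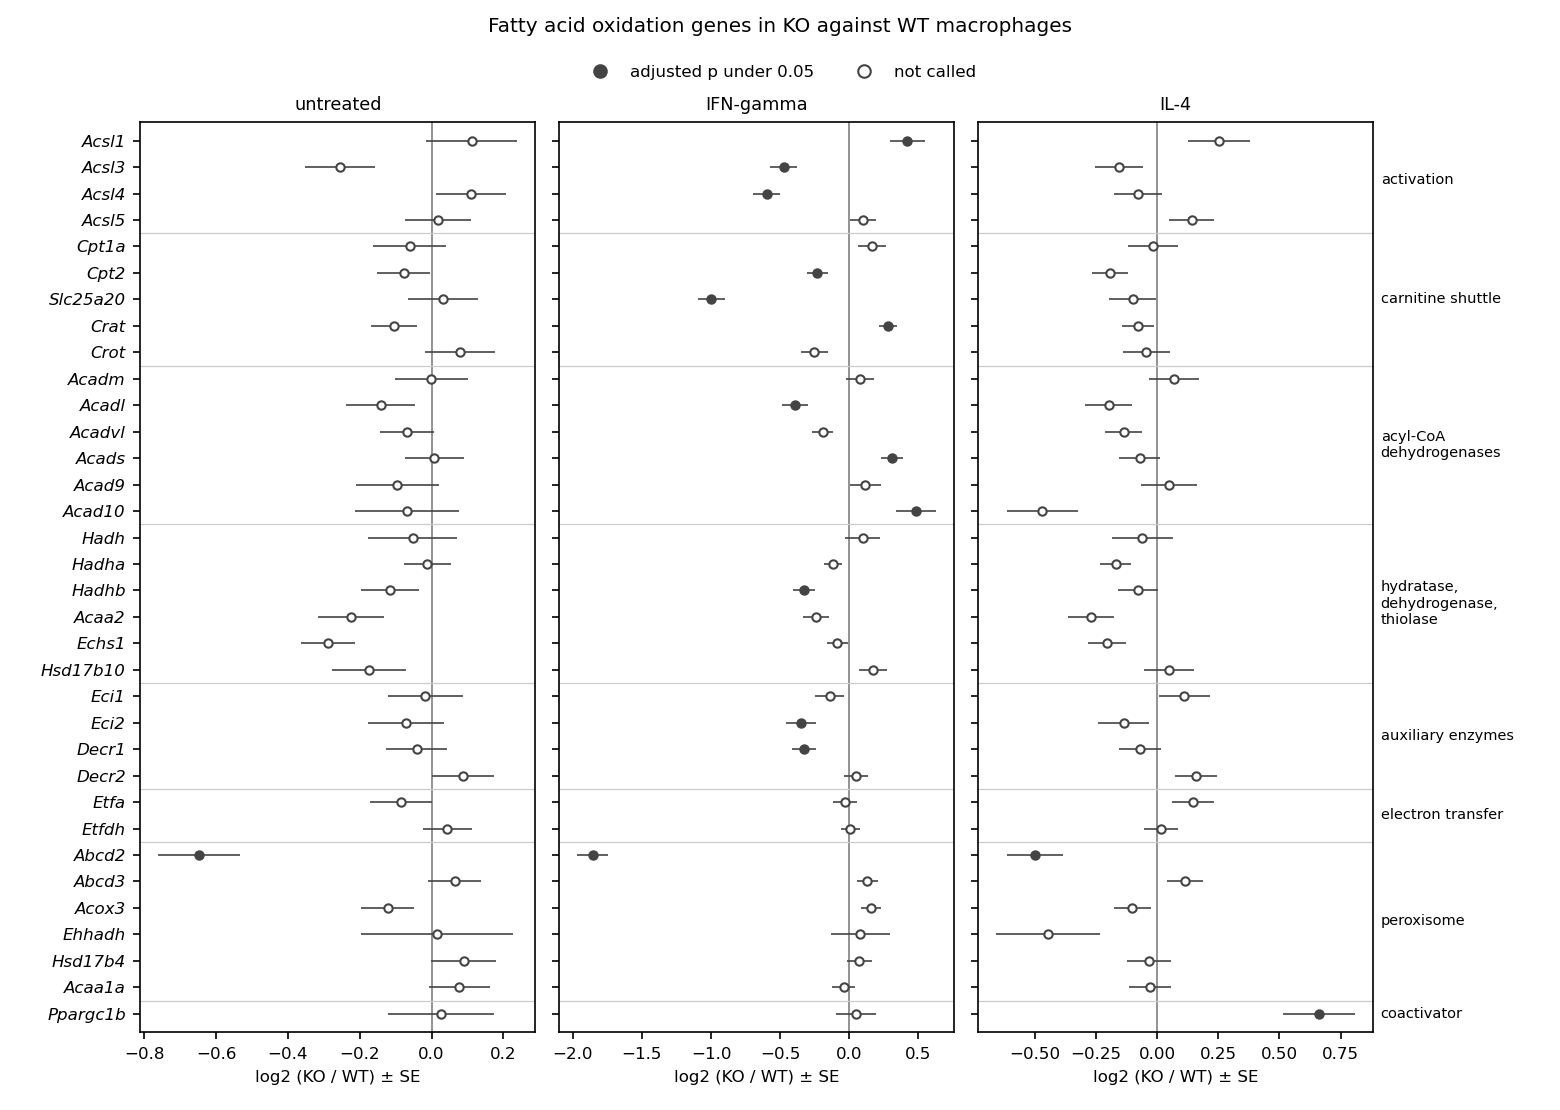
Log2 change ± SE of the 34 genes in KO against WT macrophages without treatment, with IFN-gamma and with IL-4, n = 3 libraries per group; the x axes of the panels differ in scale. Abcd2 lies left of 0 in every panel, and Slc25a20 (-0.997) and Acsl4 (-0.60) do so with IFN-gamma.

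The difference of the IFN-gamma response between genotypes was tested as an interaction. Of the 34 genes, 1 responded more positively in KO, 3 more negatively and 30 were not called, with 9.15% of all genes called, 4.3% higher and 4.84% lower. Slc25a20 rose less in KO than in WT macrophages, with an interaction of -1.03 ± 0.14, adjusted p = 0.000168. Acsl4 rose in WT macrophages and was not called in KO macrophages (-0.71 ± 0.14, adjusted p = 0.00388). Abcd2 fell further in KO macrophages (-1.21 ± 0.16, adjusted p = 0.000168). Crat fell in WT macrophages and was not called in KO macrophages (0.39 ± 0.091, adjusted p = 0.0128). Other interactions were called under alternatives. Crot was called when fitted on its own groups, at -0.33 (adjusted p = 0.0448). Acad10 was called without WT IFN-gamma 3 or with DESeq2 on recovered reads, at 0.57 to 0.69 (adjusted p = 0.0404 to 0.0486). Hsd17b10 was called without WT IFN-gamma 1 or with the animal as a block, at 0.34 to 0.49 (adjusted p = 0.0148 to 0.0269). Acox3 was called when fitted on its own groups, at 0.28 (adjusted p = 0.0228).

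These 4 interactions were called under all 20 alternatives, leaving out each untreated or IFN-gamma library included. The IL-4 libraries, which share the estimate of the spread, were not left out. Over these the values were -1.10 to -0.90 for Slc25a20, with a highest adjusted p of 0.000934. For Acsl4 they were -0.79 to -0.59, with a highest adjusted p of 0.0138. Abcd2 ran from -1.35 to -1.13, with a highest adjusted p of 0.00136, and Crat from 0.34 to 0.41, with a highest adjusted p of 0.0402. The difference of the IL-4 response was called for 0 of the 34 genes by limma, edgeR and DESeq2, with 0.007% of all genes called and 1 of the 34 genes at an unadjusted p under 0.05. For Ppargc1b, whose IL-4 changes were 1.69 in KO and 1.05 in WT macrophages, it was 0.64 ± 0.21, adjusted p = 0.648.

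**Figure D3:**
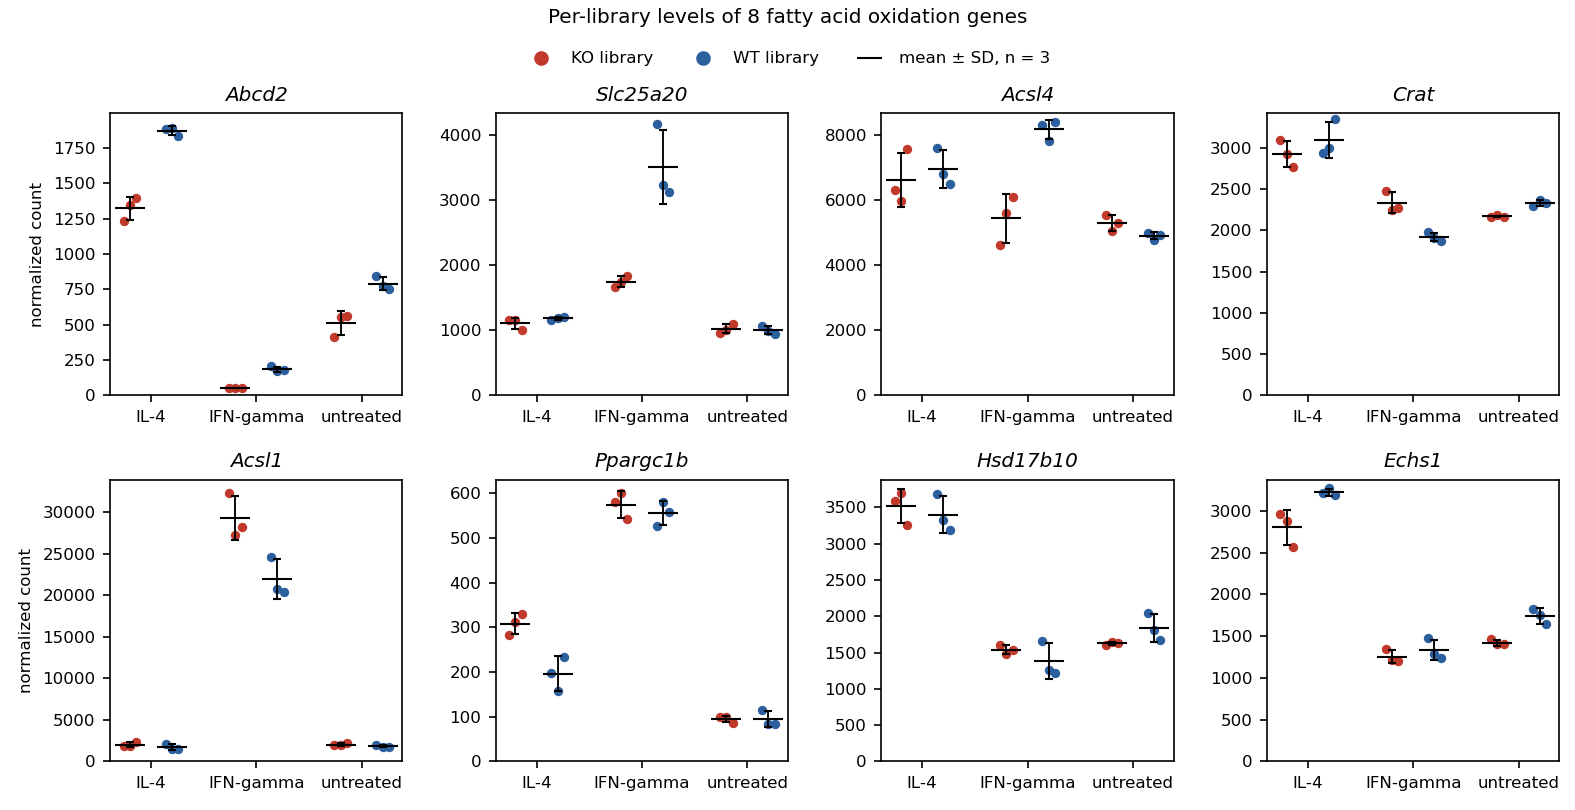
Normalized counts of each library for Abcd2, Slc25a20, Acsl4, Crat, Acsl1, Ppargc1b, Hsd17b10 and Echs1 in the 6 groups, on linear axes that start at 0, with the group mean ± SD as bars (n = 3). Groups run from IL-4 to IFN-gamma to untreated, KO left of WT. Slc25a20 reaches 1661, 1737 and 1835 in KO against 4169, 3225 and 3129.6 in WT libraries with IFN-gamma, while its untreated libraries of both genotypes overlap.

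**Figure D4:**
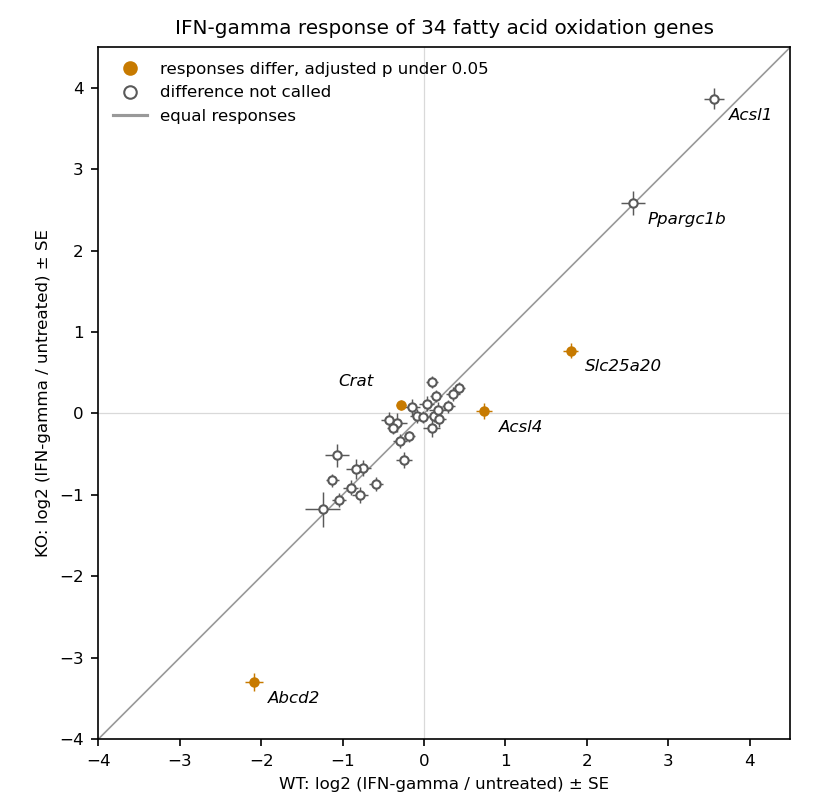
Log2 change with IFN-gamma against untreated in WT macrophages (x axis) and in KO macrophages (y axis) for the 34 genes, with the line of equal responses; filled points are called interactions, and bars are SE. Slc25a20, Acsl4 and Abcd2 lie below the line and Crat lies above it.

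Other genes of fatty acid oxidation were read from a list of 38, of which 36 were in the table and 32 were tested. With IL-4, 8 rose and 1 fell in KO macrophages, and 6 rose and 2 fell in WT macrophages. With IFN-gamma, 5 rose and 17 fell in KO macrophages, and 7 rose and 12 fell in WT macrophages. Over all genes the shares with IL-4 were 15.8% higher and 14.5% lower in KO and 16.3% and 14% in WT macrophages. With IFN-gamma they were 28.3% higher and 27.5% lower in KO and 31.4% and 31.1% in WT macrophages. In KO against WT macrophages 3 were higher and 9 lower with IFN-gamma, 0 higher and 2 lower with IL-4, and 0 higher and 2 lower without treatment. Of all genes, 14.3% were higher and 13.6% lower with IFN-gamma, 3.46% and 3.13% with IL-4, and 1.46% and 0.525% without treatment. Cd36, a fatty acid uptake receptor, rose with IL-4 by 1.35 ± 0.20 in KO macrophages (adjusted p = 5.45e-05) and 1.51 ± 0.20 in WT macrophages (adjusted p = 1.95e-05). Etfb, the beta subunit gene of the electron transfer flavoprotein, stood at 108, 125 and 137 in KO macrophages, against 191, 188 and 198 in WT macrophages with IFN-gamma, a KO to WT change of -0.65 ± 0.20, adjusted p = 0.0246. Acot1, a cytosolic acyl-CoA thioesterase gene, fell with IFN-gamma, with changes of -4.70 ± 0.60 in KO macrophages (adjusted p = 2.77e-06) and -4.36 ± 0.60 in WT macrophages (adjusted p = 5.56e-06), and Pecr, a peroxisomal enoyl-CoA reductase gene, had changes of -1.89 ± 0.20 in KO macrophages (adjusted p = 3.29e-07) and -1.96 ± 0.20 in WT macrophages (adjusted p = 1.65e-07).

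Within that list 6 genes had a called difference in IFN-gamma response between genotypes, 3 in each direction. Of all genes, 4.3% were called higher and 4.84% lower in this test. Fabp4, a fatty acid binding protein gene, fell to 857, 694 and 1151 with IFN-gamma in KO macrophages, against 1744, 1452 and 1754 untreated, and to 248, 125 and 87.3 in WT macrophages, against 2973, 2959 and 2378 untreated. The difference of the responses was 3.40 ± 0.37, adjusted p = 3.46e-05. The others were Fabp5 (1.67) and the fatty acid transporter gene Slc27a1 (0.99) upwards, and the acyl-CoA synthetase gene Acsf2 (-1.06), the mitochondrial carrier gene Ucp2 (-0.67) and Phyh, the gene of the peroxisomal phytanoyl-CoA hydroxylase, (-0.34) downwards.

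Of 13 listed regulators 12 were in the table and 11 were tested. With IFN-gamma, 5 rose and 2 fell in KO macrophages, and 5 rose and 3 fell in WT macrophages. With IL-4, 4 rose and 1 fell in KO macrophages, and 3 rose and 1 fell in WT macrophages. Of all genes, 28.3% were higher and 27.5% lower with IFN-gamma in KO, and 31.4% and 31.1% in WT macrophages. With IL-4 the shares were 15.8% and 14.5% in KO, and 16.3% and 14% in WT macrophages. In KO against WT macrophages 2 regulators were higher and 0 lower under IFN-gamma, with changes of -0.23 to 1.92 over the 11. Under IL-4 0 were higher and 1 lower, and the untreated groups also gave 0 higher and 1 lower. On animal means 1 was higher and 1 lower. The IFN-gamma interaction was called for 2, more positive in KO macrophages, with values of -0.32 to 1.35 over the 11. The shares of all genes called in these comparisons are given above. Pparg, the nuclear receptor gene known for lipid programs of alternatively activated macrophages, changed with IFN-gamma by -1.69 ± 0.17 in KO macrophages (adjusted p = 1.11e-07) and -1.75 ± 0.17 in WT macrophages (adjusted p = 5.46e-08) and with IL-4 by 1.22 ± 0.17 in KO macrophages (adjusted p = 1.94e-05) and 0.90 ± 0.17 in WT macrophages (adjusted p = 0.00044). Esrra, whose product partners with PGC-1 coactivators, rose with IFN-gamma by 0.87 ± 0.10 in KO macrophages (adjusted p = 9.32e-07) and 0.85 ± 0.10 in WT macrophages (adjusted p = 1.01e-06). Ppard rose with IFN-gamma by 1.08 ± 0.15 in KO macrophages (adjusted p = 5.94e-06) and 1.35 ± 0.15 in WT macrophages (adjusted p = 2.95e-07). Rxra, the common partner of these receptors of the PPAR family, fell with IFN-gamma, with changes of -0.94 ± 0.087 in KO macrophages (adjusted p = 4.84e-08) and -1.48 ± 0.087 in WT macrophages (adjusted p = 9.87e-11), and the responses differed by 0.53 ± 0.12, adjusted p = 0.0113.

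Promoters were searched for 4 motifs on both strands, over the 300 bases from 250 before to 50 after each RefSeq start (GRCm38.p6), for the 27 of the 34 genes that matched by symbol. The PPAR element, a direct repeat of AGGTCA with 1 base between, occurred in 0 of 27 genes and in 0.0481% of 27025 genes. The estrogen-related receptor element TCAAGGTCA occurred in 0 of 27 and in 0.466% of all genes. TTCNNNNGAA, known for STAT6 binding, occurred in 1 of 27 genes (3.7%), Abcd3, and in 8.01% of all genes. CCAAT occurred in 12 of 27 genes (44.4%) and in 41.1% of all genes. A match is no binding site by itself, and the shares say nothing of the factors. TTCNNNNGAA and CCAAT were chosen after the values of the genes had been seen.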

How the data were processed

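RNA was sequenced in 18 libraries of 6 animals. The submitters' processing notes name STAR 2.5, HTSeq 0.6, DESeq2 and edgeR as tools and GRCm38 as the genome build; no strand setting of the counting is given in the sources used here. The library columns of the deposited table hold a signal in normalized counts, which the authors made by dividing each library's counts by a size factor. Whole reads were recovered from the smallest step of each column for 100% of the values (tolerance 0.1).

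Genes with at least 10 normalized counts in at least 3 libraries (14288) entered a fit of log2(normalized count + 1) with a mean per group, by limma 3.58.1 (R 4.3.3, trend option). Tests were two-sided and adjusted by Benjamini-Hochberg. KO against WT was also fitted on 6 animal means. Alternatives were a pseudocount of 0.5 or 5, no filter, TMM-type factors, edgeR 4.0.16 (quasi-likelihood) and DESeq2 1.42.0 on recovered reads, the compared groups alone and a block. Each library of the compared groups, or each animal for the animal means, was also left out in turn. Simulated data with known changes were used to test the fit.

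The 34 genes and the gene lists were chosen with earlier results of these data known. All 34 may be named; library values are given for up to 10 called genes with the largest change in a comparison and for Cpt1a, Cpt2, Hadha, Hadhb, Acadm, Acadvl, Acsl1 and Ppargc1b, and for a few others beside them. Further genes come from the lists, besides Dvl2, which overlaps Acadvl.

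The treatments of a genotype share animals, per the labels. After subtraction of group means, 18 pairs of libraries of an animal correlated across genes at r = 0.00363 to 0.243, 13 above 0.1. A replicate number shared by KO and WT joins different animals (9 pairs, r = -0.212 to 0.104).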

Additional observations from a re-analysis of the deposited data

Results flagged for a closer look

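The IFN-gamma response differed between genotypes, by the interaction test, for 4 of the 34 genes, each with n = 3 libraries per group. Of all genes, 9.15% were called in this test. The KO change minus the WT change (log2) was -1.03 for Slc25a20, the carnitine-acylcarnitine translocase gene, -1.21 for the peroxisomal transporter gene Abcd2 and -0.71 for the synthetase gene Acsl4. It was 0.39 for the acetyltransferase gene Crat. Without WT IFN-gamma replicate 1 the differences were -0.90 for Slc25a20 (adjusted p = 0.000102), -1.13 for Abcd2 (0.000303), -0.69 for Acsl4 (0.00758) and 0.41 for Crat (0.0118). No group of these data held more than 3 libraries, so no single library was tested as an outlier.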

How the results depend on the processing

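There were 160 calls among the 34 genes, and no call changed direction under any alternative run. Of these calls, 122 were kept under every alternative of their comparison. Directions of genes that were not called were not compared. For KO against WT without treatment, 2 genes were called with DESeq2, with the untreated groups alone and with the replicate number as a replicate block, which added Echs1 to Abcd2. With IFN-gamma 7 genes were called with the IFN-gamma groups alone, against 13 in the joint fit. With IL-4 1 was called with the IL-4 groups alone, against 2. On animal means 2 were called with the replicate block, against 4. Leaving out 1 library or animal gave 10 to 13 genes with IFN-gamma, 1 to 4 with IL-4, 1 without treatment and 2 to 5 on animal means. For responses it gave 18 to 20 (KO) and 22 to 24 (WT) with IFN-gamma, 14 to 20 (KO) and 16 to 21 (WT) with IL-4, 25 to 27 (KO) and 22 to 26 (WT) for IL-4 against IFN-gamma, 4 to 5 for the IFN-gamma interaction and 0 for the IL-4 interaction. The cause of these moves was not tested.

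With the animal as a block, member counts were 21 (KO) and 25 (WT) with IFN-gamma, 21 and 20 with IL-4, 29 and 24 for IL-4 against IFN-gamma, and 5 and 0 for the interactions. Beyond the calls named beside their results, the animal pairing changed no other call of a response or interaction. Over all genes, KO against WT without treatment called 283 genes, against 608 with DESeq2 and 971 with the groups alone. With IL-4 it called 941, against 128 with the groups alone and 497 without KO IL-4 replicate 1. On animal means it called 1618, against 1031 with the replicate block. Leaving out 1 library or animal gave as few as 124 genes without treatment, 743 on animal means and 760 for the IFN-gamma interaction. The IFN-gamma interaction was called for 1307 genes, against 2073 with the animal block. That of IL-4 was called for 1, against 21 with DESeq2 and 12 with the animal block. Ehhadh, at 40.3 to 70.8 normalized counts with IFN-gamma, had the largest SE of the 34 genes (0.21), so small changes of it were less likely to be called. The source of this SE was not tested.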

Other observations

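The 16 listed genes of peroxisome biogenesis were all tested. With IFN-gamma, 4 rose and 3 fell in KO macrophages, and 5 rose and 3 fell in WT macrophages. With IL-4, 4 rose and 0 fell in KO macrophages, and 5 rose and 0 fell in WT macrophages. Of all genes, 55.8% in KO and 62.4% in WT macrophages were called with IFN-gamma. With IL-4, 15.8% were higher and 14.5% lower in KO macrophages, and 16.3% and 14% in WT macrophages. Pex16, a membrane assembly factor, rose with IFN-gamma by 0.82 ± 0.12 in KO macrophages (adjusted p = 9.52e-06) and 0.88 ± 0.12 in WT macrophages (adjusted p = 3.51e-06) and with IL-4 by 0.90 ± 0.12 in KO macrophages (adjusted p = 1.09e-05) and 0.87 ± 0.12 in WT macrophages (adjusted p = 1.69e-05). Pex7, the import receptor of proteins with the PTS2 signal, fell with IFN-gamma, with changes of -0.81 ± 0.12 in KO macrophages (adjusted p = 1.16e-05) and -0.86 ± 0.12 in WT macrophages (adjusted p = 4.6e-06). KO against WT macrophages differed for 1 higher and 2 lower genes with IFN-gamma, for 1 higher gene with IL-4 and for 0 genes without treatment. The shares called over all genes were 27.9% with IFN-gamma, 6.59% with IL-4 and 1.98% without treatment. Pex26, which anchors an import complex in the membrane, was higher in KO macrophages by 0.43 ± 0.11, adjusted p = 0.00902 with IFN-gamma, and by 0.40 ± 0.11, adjusted p = 0.0438 with IL-4.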
